A study of Mus musculus with 12 samples.

Results

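The genes described here write, keep and remove DNA methylation: Dnmt1, Dnmt3a, Dnmt3b, Dnmt3l, Uhrf1, Tet1, Tet2 and Tet3. They were listed by name, and every probe set that carries 1 of these 8 symbols was taken, which gave 20 of the 45037 non-control probe sets and 8 of the 18193 genes on the array. The cells were embryoid bodies, aggregates that mouse embryonic stem cells of strain 129 form in suspension without LIF, harvested at day 2.5. Their genotypes were Smad4-null, a Trim33 knock-down (Trim33-KD) and wild type (WT). For 2 h they were exposed either to activin (ac) at 50 ng/ml or to SB431542 (SB), a blocker of the activin and nodal type I receptors that the labels give at 10 mM. The 6 groups, Smad4-null-ac, Smad4-null-SB, Trim33-KD-ac, Trim33-KD-SB, WT-ac and WT-SB, had 2 arrays each. There was no untreated group, and the labels describe neither how Smad4 was lost, nor how Trim33 was knocked down, nor whether the replicates were separate cultures. The p-values therefore measure the spread between these samples, and a genotype cannot be told apart from the history of its cell line.

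The enzymes fall into 3 roles. Dnmt1 copies methylation onto the new DNA strand after replication, guided there by Uhrf1, which binds hemimethylated CpG. Dnmt3a and Dnmt3b set methylation on unmethylated DNA, and Dnmt3l, which has no catalytic activity of its own, stimulates them. Tet1, Tet2 and Tet3 oxidize 5-methylcytosine, which starts its removal. In mouse, naive pluripotent cells carry little methylation and express Tet1 and Tet2. The passage to the primed epiblast state is known for a rise of Dnmt3a and Dnmt3b and a fall of Tet2. Methylation itself was not measured here.

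The start regions of these genes differ widely in CpG content. All 8 genes have windows in the RefSeq table of GRCm38.p6, 15 windows in all, each from 250 bases before to 50 bases after an annotated start. Over the 32851 windows of all genes the median was 7 CpG. Windows of the 4 genes called in Smad4-null minus WT are shown 5′ to 3′ on the strand of the gene, with each CpG in capitals. For Dnmt3l this is chr10:78042037-78042336 on the plus strand, with 6 CpG, a content below the median (43.6% of windows have fewer). For Tet1 it is chr10:62887275-62887574 on the minus strand, with 17 CpG, and for Tet2 chr3:133544341-133544640 on the minus strand, with 57 CpG, more than 99.8% of windows. Dnmt3a has an upstream start with 46 CpG, chr12:3806730-3807029 on the plus strand, and an internal start with 18 CpG, chr12:3891494-3891793 on the plus strand; a further window with 47 CpG, chr12:3806910-3807209, overlaps the upstream one and is not shown.
Dnmt3l: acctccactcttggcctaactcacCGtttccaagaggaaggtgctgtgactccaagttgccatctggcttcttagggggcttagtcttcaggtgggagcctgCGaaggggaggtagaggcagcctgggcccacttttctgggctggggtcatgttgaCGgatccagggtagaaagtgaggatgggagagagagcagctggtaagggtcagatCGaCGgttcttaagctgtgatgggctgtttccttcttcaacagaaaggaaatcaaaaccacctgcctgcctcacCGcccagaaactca
Tet1: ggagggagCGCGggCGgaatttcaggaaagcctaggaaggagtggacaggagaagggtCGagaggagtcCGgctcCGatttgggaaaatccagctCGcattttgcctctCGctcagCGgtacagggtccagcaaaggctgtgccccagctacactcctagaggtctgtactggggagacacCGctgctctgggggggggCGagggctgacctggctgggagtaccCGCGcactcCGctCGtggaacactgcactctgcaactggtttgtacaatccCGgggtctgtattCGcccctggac
Tet2: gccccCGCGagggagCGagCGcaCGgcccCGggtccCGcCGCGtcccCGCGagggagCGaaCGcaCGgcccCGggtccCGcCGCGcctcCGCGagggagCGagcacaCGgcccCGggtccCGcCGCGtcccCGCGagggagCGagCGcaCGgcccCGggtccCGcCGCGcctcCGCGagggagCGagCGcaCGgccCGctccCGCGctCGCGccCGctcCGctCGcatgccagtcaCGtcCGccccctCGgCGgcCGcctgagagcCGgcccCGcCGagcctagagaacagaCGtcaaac
Dnmt3a, upstream start: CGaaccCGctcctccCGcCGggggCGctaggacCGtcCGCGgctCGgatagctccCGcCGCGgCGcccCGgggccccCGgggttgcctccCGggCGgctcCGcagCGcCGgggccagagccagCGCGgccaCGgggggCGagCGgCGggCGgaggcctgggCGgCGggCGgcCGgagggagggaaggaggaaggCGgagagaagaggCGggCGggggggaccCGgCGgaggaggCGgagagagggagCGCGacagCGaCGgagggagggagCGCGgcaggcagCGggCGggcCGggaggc
Dnmt3a, internal start: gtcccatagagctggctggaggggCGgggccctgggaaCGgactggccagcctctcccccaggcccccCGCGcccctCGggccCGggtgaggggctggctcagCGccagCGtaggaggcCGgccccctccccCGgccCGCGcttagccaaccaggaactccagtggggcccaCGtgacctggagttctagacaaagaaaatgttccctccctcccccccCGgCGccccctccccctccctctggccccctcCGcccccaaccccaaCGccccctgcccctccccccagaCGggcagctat
The other 2 annotated starts of Dnmt3l have 4 and 3 CpG. On either strand, the core of the Smad binding element, CAGAC, occurs 2 times in the Tet1 window, once in the Tet2 window and in the internal Dnmt3a window, and in neither the Dnmt3l nor the upstream Dnmt3a window shown, although the Dnmt3l window chr10:78055085-78055384 holds 1; 49.6% of all windows hold it. The letters TGTNNATT, a FoxH1 core, are in none of the 15 windows and in 12.2% of all windows. The E2F letters TTTNGCGC, in 1.4% of all windows, occur 2 times in a Dnmt1 window and once in a Uhrf1 window. Such matches describe letters and not binding.

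Values are the deposited log2 signals, whose antilog has a trimmed mean of 500 on each array, and a gene is given by its brightest probe set unless another is named. The brightest probe set of 7 of the 8 genes lay in the upper 50% of genes by mean signal; Tet3, at percentile 13.9, did not. A gene is called changed where limma's Benjamini-Hochberg adjusted p over all genes is under 0.05. The antilog signals of 7 embryonic stem cell and epiblast markers summed to 49024 to 50245 in Smad4-null. The sums were 48896 to 54635 in Trim33-KD and 48340 to 54844 in WT. These sums hide opposite calls: Sox2 and Utf1 were called higher in Smad4-null than in WT, and Pou5f1, Nanog and Tdgf1 lower. That is 2 of 7 higher and 3 lower, against 7.12% and 11.3% of all genes. After median centring Sox2, Pou5f1 and Nanog were not called. Over 4 other settings Sox2 lost its call in 4, Pou5f1 and Nanog in 3 each, Utf1 in 1 and Tdgf1 in 0. The settings were quantile normalization, median centring, and leaving out both WT replicate 1 arrays or the arrays of narrowest spread named below. In Trim33-KD 0 of the 7 were called, against 0.649% of all genes. Trim33 signal was 34.4% of WT in Trim33-KD (limma adjusted p = 0.0101), whereas the Smad4 probe set read 115% of WT in Smad4-null and so does not check that label. The arrays WT-ac replicate 1 and WT-SB replicate 1 had low 18S rRNA signals of 5.53 and 5.82, against 7.56 to 10.2 on the rest, and the narrowest spread of signals was found on Smad4-null-ac replicate 1 and on WT-SB replicate 2. In bulk samples fewer cells of a type and less RNA per cell cannot be told apart.

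In Smad4-null embryoid bodies 4 of the 8 genes were called higher than in WT and 0 lower: Dnmt3l, Dnmt3a, Tet1 and Tet2. In Trim33-KD embryoid bodies 1 was called higher, Dnmt3l, and 0 lower. Of all 18193 genes, 18.4% were called in Smad4-null minus WT, 7.12% as raised and 11.3% as lowered. In Trim33-KD minus WT 0.649% were called, 0.445% as raised and 0.203% as lowered. Raised genes made up 68.6% of those calls, and 90.2% of the calls after each array was centred on its median. The median difference of the 8 genes was 0.49 in Smad4-null minus WT, against −0.03 over all genes, and −0.01 in Trim33-KD minus WT, against −0.04. Both comparisons use the same 4 WT arrays. The activin and SB431542 arrays of a replicate number deviated together in WT (correlation 0.386) and in Trim33-KD (0.335), so the 4 arrays of these genotypes may not be independent. With the arrays of a number averaged, leaving 2 values per genotype, only Dnmt3l and Tet1 were called in Smad4-null minus WT (limma adjusted p = 0.0228 and 0.0472) and 0 genes of the 8 in Trim33-KD minus WT. All 4 Smad4-null arrays lay above all 4 WT arrays for 5 of the 8 genes and below them for 0, against 10.8% and 15% of all genes. All 4 Trim33-KD arrays lay above the WT arrays for 3 genes and below them for 1, against 6.12% and 6.28% of all genes. Smad4-null arrays lay above Trim33-KD arrays for 2 genes and below them for 0, against 12% and 15.2% of all genes.

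**Figure D1:**
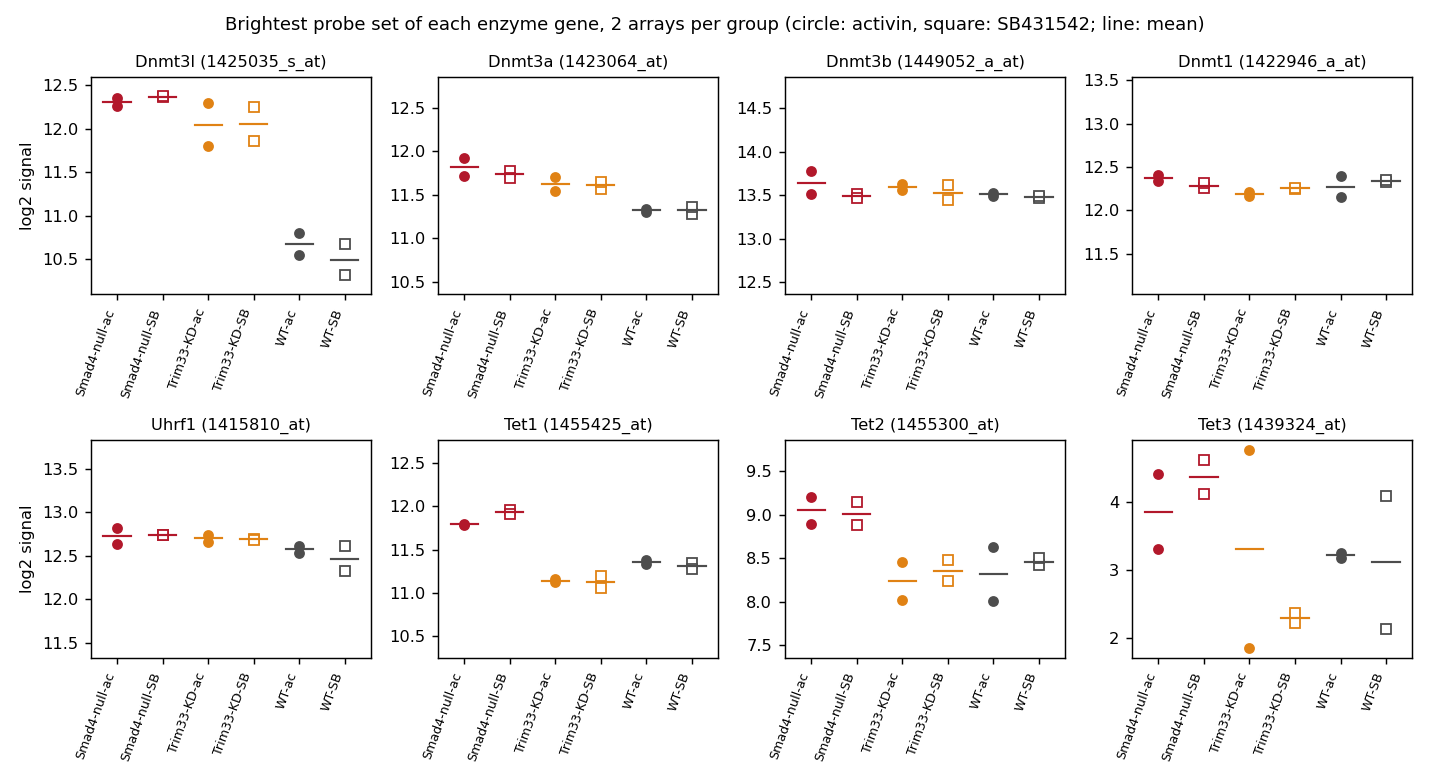
Log2 signal (vertical axis) of the brightest probe set of each gene on every array, by group (horizontal axis); circles are activin, squares SB431542 and lines group means. The vertical axis spans the same number of log2 units in every panel except Tet3, where it is wider. Dnmt3l lies between 11.80 and 12.38 in both mutants and between 10.31 and 10.80 in WT, whereas Tet1 lies between 11.78 and 11.95 in Smad4-null and between 11.06 and 11.38 in the other genotypes.

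Among the de novo methylation genes, Dnmt3l showed the largest called difference. Its signal was 12.27 and 12.35 in Smad4-null-ac and 12.37 and 12.38 in Smad4-null-SB. It was 11.80 and 12.30 in Trim33-KD-ac and 11.86 and 12.25 in Trim33-KD-SB. It was 10.80 and 10.55 in WT-ac and 10.67 and 10.31 in WT-SB. Every array of either mutant thus read above every WT array, while the highest Trim33-KD array read above the lowest Smad4-null one. The mean was 12.34 ± 0.05 in Smad4-null and 10.58 ± 0.21 in WT (SD, n = 4 each), a 3.38-fold difference (log2 1.76, SE 0.15, limma adjusted p = 0.000485). In Trim33-KD the mean was 12.05 ± 0.26 (SD, n = 4), which is 2.77-fold above WT (log2 1.47, SE 0.15, limma adjusted p = 0.0149). By p-value Dnmt3l ranked 219 of 18193 genes in Smad4-null minus WT and 25 in Trim33-KD minus WT. Smad4-null minus Trim33-KD was 0.29, with a 95% interval from −0.07 to 0.65 (limma adjusted p = 0.252).

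The Trim33-KD call of Dnmt3l rests on few arrays. Both replicate 1 arrays of Trim33-KD, at 11.80 and 11.86, read lower than both replicate 2 arrays, at 12.30 and 12.25. The call was lost without either replicate 2 array of Trim33-KD and without either WT-ac array, with limma adjusted p of 0.0546 to 0.0655, while the difference stayed between 1.34 and 1.60 with any 1 array left out. Without both WT replicate 1 arrays the adjusted p was 0.0994, and with the arrays of a number averaged it was 0.217. On the same replicate 2 arrays of Trim33-KD (activin, then SB431542) the antilog signals of 8 trophectoderm markers summed to 11364 and 11565. On the replicate 1 arrays they summed to 5884 and 5514. Krt8 and Krt18 gave most of each sum and of its rise. Hand1 and Krt7 also rose under both treatments. Cdx2 read 8.57 and 7.97 against 8.17 and 8.28, and Tfap2c 9.33 and 9.71 against 9.90 and 9.59. Elf5 and Gata3 lay under 64 on the linear scale. The sum is therefore no measure of trophectoderm cells alone, and the part of these markers in the Dnmt3l difference was not tested. The single Dnmt3l probe set, 1425035_s_at, belongs by its suffix to those that may also match other transcripts, and no further probe set reads this gene.

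Dnmt3a, a de novo methyltransferase, read 11.93 and 11.72 in Smad4-null-ac and 11.77 and 11.70 in Smad4-null-SB. It read 11.55 and 11.70 in Trim33-KD-ac and 11.57 and 11.65 in Trim33-KD-SB, and 11.34 and 11.31 in WT-ac and 11.28 and 11.36 in WT-SB. The 4 arrays of each mutant lay above the 4 WT arrays. Smad4-null averaged 11.78 ± 0.10 and WT 11.32 ± 0.04 (SD, n = 4 each), a 1.37-fold difference (log2 0.46, SE 0.08, limma adjusted p = 0.00847). The call was lost without both WT replicate 1 arrays (adjusted p = 0.0669) and with the arrays of a number averaged (0.0824). In Trim33-KD the mean was 11.62 ± 0.07 (SD, n = 4), 0.29 above WT (SE 0.08), which did not pass (limma adjusted p = 0.157). Smad4-null minus Trim33-KD was 0.16 (95% interval −0.03 to 0.35).

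The 5 Dnmt3a probe sets did not move together. In a fit over all 45037 probe sets, of which 8.84% were called in Smad4-null minus WT, 3 of the 5 were called, all higher in Smad4-null: 1423065_at by 0.57, 1423066_at by 0.47 and 1423064_at by 0.46 (limma adjusted p = 0.0272, 0.0410 and 0.0339). The other probe sets, 1423063_at and 1460324_at, had negative differences of −0.44 and −0.35 that did not pass (limma adjusted p = 0.0893 and 0.119). Over the 20 probe sets of the 8 genes, Smad4-null arrays lay above WT arrays without overlap for 10 and below them for 1, against 8.43% and 10.7% of all probe sets. The single lower one was 1423063_at, on which the Smad4-null arrays read 9.07 to 9.27 and the WT arrays 9.29 to 9.76. The signal of 1423063_at relative to the brightest probe set on the same array was −2.62 ± 0.19 in Smad4-null and −1.73 ± 0.24 in WT (log2, SD, n = 4 each). For 1460324_at it was −3.78 ± 0.09 in Smad4-null and −2.98 ± 0.07 in WT (log2, SD, n = 4 each). Both ratios reached the smallest p that an exact two-sided permutation test of 4 against 4 arrays can give, 0.0286, but not the threshold after adjustment over 24 such tests (adjusted p = 0.137). With 5 of the 24 tests at that smallest p, no lower adjusted p was possible, so the adjusted value cannot decide whether the ratios differ. In Trim33-KD the ratio of 1460324_at was −3.27 ± 0.11, which is 0.29 below WT and also at the smallest p (exact p = 0.0286, adjusted p = 0.137). That of 1423063_at was −1.98 ± 0.05 (SD, n = 4 each, exact p = 0.143). In Trim33-KD 1460324_at itself differed from WT by 0.006 (limma adjusted p = 0.987). The shift of its ratio thus came from the brightest probe set, 1423064_at, whose difference of 0.29 was not called. Averaged over all 5 probe sets, Dnmt3a was 0.14 higher in Smad4-null than in WT and no longer called (limma adjusted p = 0.284). A ratio within an array shows unequal change of its probe sets, and which Dnmt3a transcripts each probe set reads was not tested, since probe positions were not used here.

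**Figure D2:**
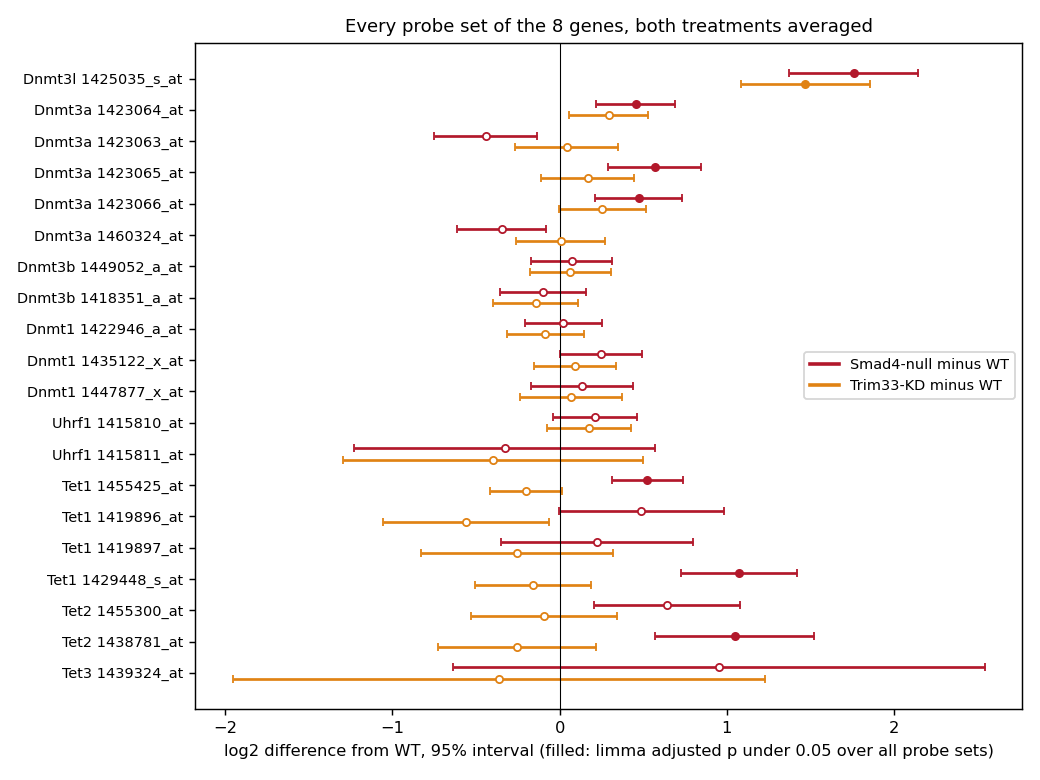
Log2 difference from WT (horizontal axis, with 95% intervals) of each of the 20 probe sets, with both treatments averaged; filled symbols mark a limma adjusted p under 0.05 over all probe sets. In Smad4-null 3 Dnmt3a probe sets lie at 0.46 to 0.57 and 2 lie at −0.44 and −0.35.

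Dnmt3b, the other de novo methyltransferase, lay at percentile 99.3 of all genes by mean signal and was not called in either mutant. Its 12 arrays lay between 13.44 and 13.77. Smad4-null minus WT was 0.07 (95% interval −0.13 to 0.27) and Trim33-KD minus WT 0.06 (−0.13 to 0.26). The difference turned slightly negative in both comparisons after quantile normalization, at −0.06 and −0.02. The weaker Dnmt3b probe set, 1418351_a_at, was lower relative to the brighter one in both mutants, by −0.17 in Smad4-null and −0.21 in Trim33-KD (exact permutation p = 0.0286 each, adjusted p = 0.137).

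The maintenance genes gave no call. Dnmt1 lay between 12.16 and 12.41 on all arrays. Its difference from WT was 0.02 in Smad4-null (95% interval −0.16 to 0.21) and −0.08 in Trim33-KD (−0.27 to 0.10), and both signs depended on the scaling. The dimmer Dnmt1 probe set 1435122_x_at was 0.25 higher in Smad4-null than in WT (95% interval 0.004 to 0.49), which did not pass (limma adjusted p = 0.218). 1447877_x_at was 0.13 higher there and also uncalled. In Trim33-KD these probe sets differed from WT by 0.09 and 0.07, opposite in sign to the brightest one and uncalled. Uhrf1 read 12.63 and 12.83 in Smad4-null-ac, 12.74 and 12.74 in Smad4-null-SB, 12.74 and 12.66 in Trim33-KD-ac, 12.70 and 12.68 in Trim33-KD-SB, 12.53 and 12.61 in WT-ac and 12.61 and 12.33 in WT-SB. The 4 arrays of each mutant lay above the 4 WT arrays, by 0.21 on average in Smad4-null (SE 0.09, limma adjusted p = 0.158) and by 0.18 in Trim33-KD (SE 0.09, limma adjusted p = 0.369). The second Uhrf1 probe set, 1415811_at, read 11.64 and 11.71 on WT-ac replicate 1 and WT-SB replicate 1, the arrays with low 18S signal, and 10.03 to 10.83 on the other 10 arrays. Its difference from WT was −0.33 in Smad4-null and −0.40 in Trim33-KD, opposite in sign to the brighter probe set, and neither was called.

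Both maintenance genes are known to be expressed mainly around S phase, and 15 of 16 listed S phase genes were measured. In Smad4-null 4 of these were called higher than in WT and 0 lower: Cdt1, which licenses replication origins, by 0.63, Chaf1b, a chromatin assembly subunit, by 0.54, Cdc6, which loads the replicative helicase, by 0.42 and Rrm2, a ribonucleotide reductase subunit, by 0.29 (limma adjusted p = 0.00785 to 0.0369). The list's median was 0.18, and 7.12% of all genes were called higher and 11.3% lower. Without WT-ac replicate 1 and WT-SB replicate 1 only Cdt1 was called. In Trim33-KD 0 of the 15 were called, against 0.649% of all genes, and the list's median was 0.07.

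Of the oxidizing enzymes Tet1 and Tet2 were called higher in Smad4-null than in Trim33-KD, and Tet3 was not called. Tet1, the most abundant Tet enzyme of embryonic stem cells, read 11.78 and 11.80 in Smad4-null-ac and 11.95 and 11.91 in Smad4-null-SB. It read 11.12 and 11.16 in Trim33-KD-ac and 11.20 and 11.06 in Trim33-KD-SB, and 11.38 and 11.34 in WT-ac and 11.35 and 11.28 in WT-SB. The 3 genotypes did not overlap: Smad4-null arrays were the highest and Trim33-KD arrays the lowest. Smad4-null averaged 11.86 ± 0.08 and WT 11.34 ± 0.04 (SD, n = 4 each), a 1.44-fold difference (log2 0.52, SE 0.07, limma adjusted p = 0.00239). Trim33-KD averaged 11.14 ± 0.06 (SD, n = 4), and its difference from WT of −0.20 (SE 0.07) did not pass (limma adjusted p = 0.218) and vanished when each array was centred on its median, at 0.00. Smad4-null minus Trim33-KD was 0.72 (1.65-fold, limma adjusted p = 0.000637), where 18.4% of all genes were called, 7.32% as raised and 11.1% as lowered. Raised genes were 39.8% of those calls, and 20.2% after median centring. Median centring moved the median of all genes by 0.20 in Trim33-KD minus WT and by −0.17 in Smad4-null minus Trim33-KD, and the Tet1 difference between the mutants was then 0.55 (limma adjusted p = 0.00846).

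The further Tet1 probe sets gave differences of the same signs in the deposited scaling. 1429448_s_at was 1.07 higher in Smad4-null than in WT (2.10-fold, limma adjusted p = 0.00581 over all probe sets), from 10.52 to 10.79 on Smad4-null arrays and 9.30 to 9.96 on WT arrays. 1419896_at was 0.49 higher in Smad4-null than in WT, which did not pass (limma adjusted p = 0.231), and 1.05 higher in Smad4-null than in Trim33-KD (limma adjusted p = 0.0232), where 9.47% of probe sets were called. The fourth probe set, 1419897_at, was dim, at 4.96 to 6.58, and uncalled. Each of these 4 probe sets had a negative difference from WT in Trim33-KD, from −0.56 to −0.16, of which 0 were called (0.113% of all probe sets were).

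Tet2, which is shut down on leaving the naive state in mouse, read 8.90 and 9.21 in Smad4-null-ac and 8.89 and 9.15 in Smad4-null-SB. It read 8.45 and 8.02 in Trim33-KD-ac and 8.23 and 8.48 in Trim33-KD-SB, and 8.64 and 8.01 in WT-ac and 8.42 and 8.51 in WT-SB. The Smad4-null arrays lay above all others, and the Trim33-KD and WT arrays overlapped. Smad4-null averaged 9.03 ± 0.17 and WT 8.39 ± 0.27 (SD, n = 4 each), a 1.56-fold difference (log2 0.64, SE 0.18, limma adjusted p = 0.0440). This call was close to the threshold and was lost in 18 of 27 alternative settings, with adjusted p up to 0.138. Trim33-KD averaged 8.30 ± 0.22 (SD, n = 4), −0.09 from WT (95% interval −0.51 to 0.32). The second probe set, 1438781_at, was 1.05 higher in Smad4-null than in WT (2.07-fold, limma adjusted p = 0.0204), with 7.32 to 8.09 on Smad4-null arrays and 6.48 to 6.92 on WT arrays. On that probe set Smad4-null exceeded Trim33-KD 2.47-fold (limma adjusted p = 0.00887), and on the brightest one 1.67-fold (limma adjusted p = 0.0271).

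Tet3, the Tet enzyme of the oocyte and zygote, read 1.86 to 4.76 over the 12 arrays, with an SD within groups of 1.07. All its arrays lay under a signal of 64 on the linear scale. Its difference from WT was 0.95 in Smad4-null (95% interval −0.64 to 2.55) and −0.36 in Trim33-KD (−1.96 to 1.23). Smad4-null minus Trim33-KD was 1.31 and did not pass (limma adjusted p = 0.238), but was called without Trim33-KD-ac replicate 1 (2.04, adjusted p = 0.0455).

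**Figure D3:**
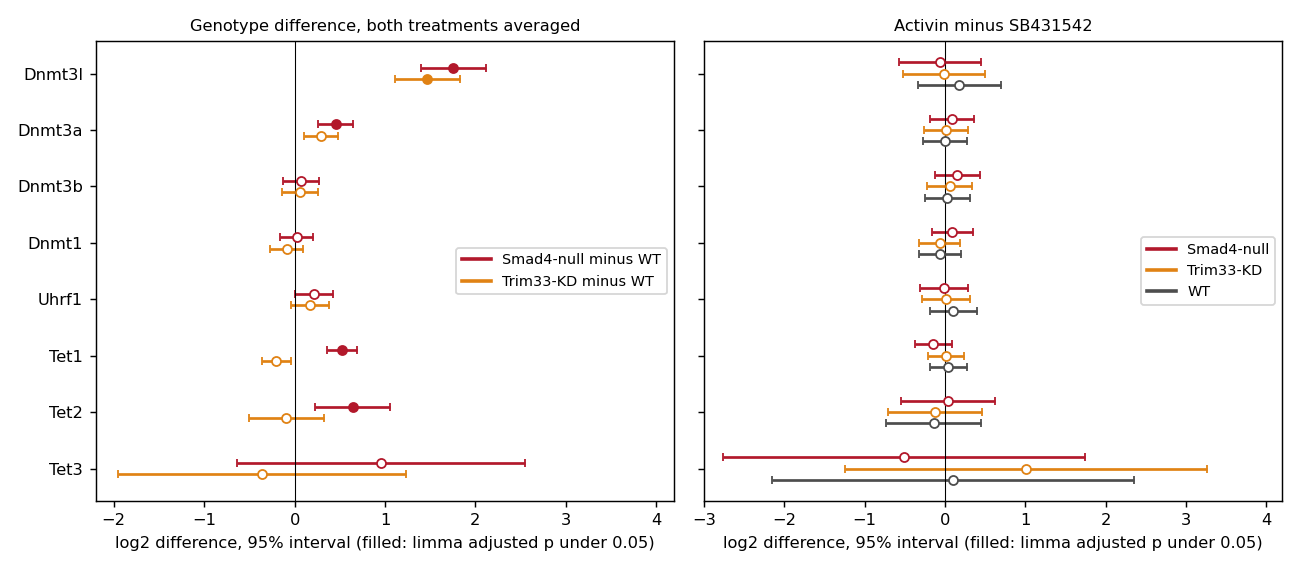
Log2 differences (horizontal axis, with 95% intervals) of the brightest probe sets, for each mutant minus WT over both treatments (left) and for activin minus SB431542 within each genotype (right); filled symbols mark a limma adjusted p under 0.05 over all genes. The 5 filled symbols are all genotype differences, and every activin interval includes 0.

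No call was made for activin in any of these genes within 2 h. Of the 8 genes 0 were called for activin minus SB431542 in Smad4-null, Trim33-KD or WT, in the mean of the 3 responses, or in the difference of either mutant's response from WT. At an unadjusted p under 0.05 limma also gave 0 of the 8 brightest probe sets in each of these comparisons, against 1239, 766 and 731 of 18193 genes in the responses of Smad4-null, Trim33-KD and WT, 822 in the mean response, 1317 in Smad4-null minus WT response and 485 in Trim33-KD minus WT response. Calls were rare among all genes too, at 0.011%, 0.011% and 0.033% in the 3 responses, 0.0824% in the mean response and 0% in either response difference. Of the 20 probe sets 0 were called in any of these comparisons, in which 0%, 0.00222% and 0.00444% of all probe sets passed in the 3 responses and 0.04% in the mean response, nor in the difference between the Smad4-null and Trim33-KD responses, in which 0.00222% passed. Among the dimmer probe sets the Dnmt3a probe set 1423066_at had a Trim33-KD response of 0.67 (95% interval 0.30 to 1.03) and the Tet1 probe set 1419896_at one of 0.90 (0.20 to 1.60), with limma adjusted p of 0.740 and 0.998 over all probe sets. The mean response of Dnmt3l was 0.04, with a 95% interval from −0.26 to 0.33. That of Tet1 was −0.03 (−0.16 to 0.10), that of Dnmt3a 0.03 (−0.12 to 0.19) and that of Dnmt3b 0.08 (−0.08 to 0.24). The intervals of Dnmt1 (−0.16 to 0.14), Uhrf1 (−0.14 to 0.21) and Tet2 (−0.41 to 0.26) included 0, as did that of Tet3, which began at −1.10. Dnmt3l thus kept its genotype difference under either treatment: the group means were 12.31 in Smad4-null-ac, 12.05 in Trim33-KD-ac and 10.67 in WT-ac, and 12.37 in Smad4-null-SB, 12.06 in Trim33-KD-SB and 10.49 in WT-SB.

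Across the 12 arrays some genes followed these patterns closely, as a description that rests mostly on the 3 genotypes. Among 9096 genes of the upper 50% by signal, the highest Pearson correlations with Dnmt3l were those of Tex19.1 (0.990), Fam25c (0.973) and Tcea3 (0.968). With Tet1 they were E2f8 (0.982), Itga6 (0.974) and Cox15 (0.973), with Tet2 Meak7 (0.953), Pold2 (0.938) and Acd (0.928), and with Dnmt3a Hspb1 (0.967), Leprotl1 (0.965) and Kat2b (0.963). The genes nearest to Uhrf1, Dnmt1 and Dnmt3b reached 0.941 (Nudcd2), 0.928 (Gart) and 0.887 (Hnrnpu).

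Germline genes whose promoters are known to be silenced by DNA methylation in mouse were measured for 17 of 17 listed members. In Smad4-null 8 were called higher than in WT and 1 lower, against 7.12% and 11.3% of all genes. The median difference was 1.14, the value of Tdrd1, which was uncalled and under a linear signal of 64 on every array. With signals set to at least 64, a setting under which 3 of the 17 had no signal above it, the counts were also 8 and 1 and the median was 0.39. Hormad1, a protein of the meiotic chromosome axis, read 7.58 and 8.78 in Smad4-null-ac and 8.74 and 9.39 in Smad4-null-SB, 5.25 and 5.31 in Trim33-KD-ac and 5.09 and 5.57 in Trim33-KD-SB, and 4.88 and 5.21 in WT-ac and 5.41 and 4.50 in WT-SB. All 4 WT arrays lay under 64 on the linear scale, where differences have no dependable size. With signals set to at least 64, Hormad1 was at least 6.15-fold higher in Smad4-null than in WT (limma adjusted p = 0.00144). Slc25a31, a testis ADP/ATP carrier, with 2 of the 4 WT arrays under 64, was then 1.70 higher, and Sycp1, a synaptonemal complex protein, with 3 of them under 64, 1.09 higher (limma adjusted p = 1.32e-05 and 0.00626). Dazl, a germ cell RNA-binding protein above 64 on all arrays, was 1.53 higher (limma adjusted p = 0.000180). Sycp3, a further protein of the meiotic chromosome axis, was lower in Smad4-null by −1.37 (limma adjusted p = 0.00575). Without WT-ac replicate 1 and WT-SB replicate 1, 6 were called higher and 0 lower. Without the 2 arrays of narrow spread the counts were 8 and 1 and the median was 0.49.

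In Trim33-KD 1 of the 17 germline genes was called, Tex19.1, against 0.649% of all genes. Tex19.1 restrains retrotransposons in germ cells and is also expressed in embryonic stem cells. It averaged 11.55 ± 0.06 in Smad4-null, 11.20 ± 0.28 in Trim33-KD and 10.20 ± 0.11 in WT (SD, n = 4 each). The signal exceeded that of WT 2.55-fold in Smad4-null (limma adjusted p = 0.00116) and 2.01-fold in Trim33-KD (limma adjusted p = 0.0409), and the Trim33-KD call was lost without both WT replicate 1 arrays and without the 2 arrays of narrow spread. Of 5 germ cell markers 4 were measured, Ddx4, Dazl, Tfap2c and Prdm1, of which Ddx4 and Dazl are also in the germline list. Their summed antilog signal was 2499 to 2922 in Smad4-null, 1839 to 2304 in Trim33-KD and 1773 to 2133 in WT, and its part in the germline result was not tested.

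**Figure D4:**
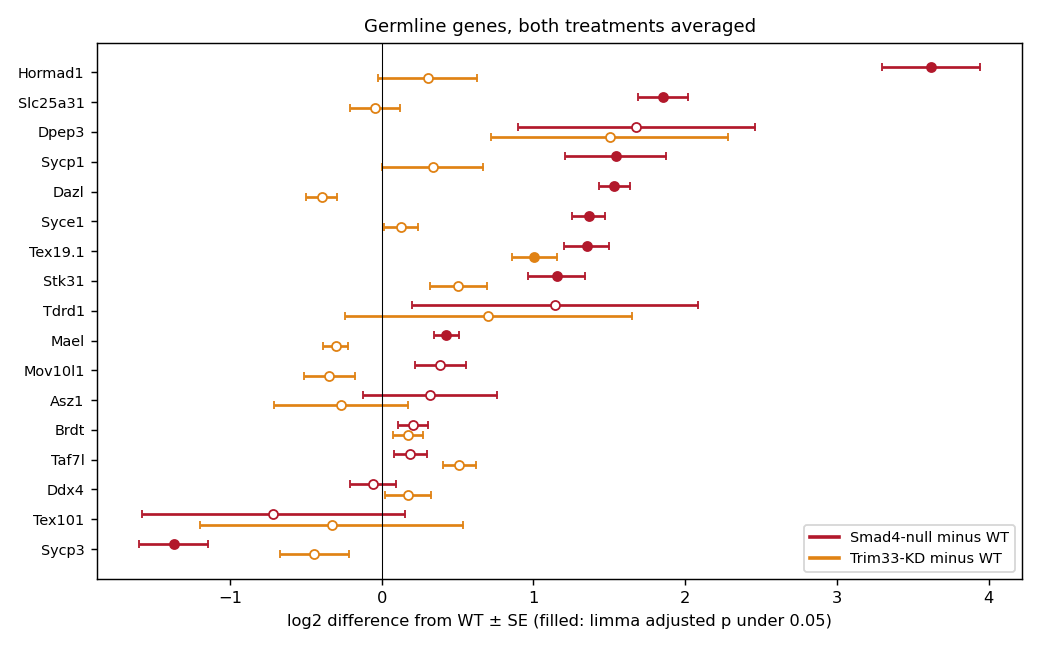
Log2 difference from WT (horizontal axis, ± SE) of the 17 germline genes in Smad4-null and Trim33-KD, with both treatments averaged; filled symbols mark a limma adjusted p under 0.05 over all genes. In Smad4-null 8 filled symbols lie above 0 and Sycp3 lies at −1.37, and in Trim33-KD only Tex19.1 is filled; signals under 64 entered as deposited.

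Other genes of the methylation pathway were called in both directions in Smad4-null, where 7.12% of all genes were called higher and 11.3% lower. In Trim33-KD 0 of them were called, against 0.649% of all genes. With so small a share, 0 calls in lists of this size say little. Of 14 partners and recruiters of the enzymes 3 were called higher than in WT: Prdm14, which in mouse embryonic stem cells represses de novo methyltransferase genes and recruits Tet enzymes, by 1.40, Zfp57, which keeps imprints methylated, by 0.67, and Hells, a remodeller that aids de novo methylation, by 0.37 (limma adjusted p = 0.00105, 0.00659 and 0.0374). Cxxc4 and Cxxc5, CXXC proteins that bind unmethylated CpG and interact with Tet2, were lower, by −0.84 and −0.46 (limma adjusted p = 0.0173 and 0.00801). The list's median was 0.08. Hells lost its call in 4 of 4 other settings (quantile normalization, median centring, without both WT replicate 1 arrays and without the 2 arrays of narrow spread), and without both WT replicate 1 arrays only Prdm14 was called higher. All 4 Smad4-null arrays of Cxxc4 lay under 64, and with signals set to at least 64 it was not called (limma adjusted p = 0.122).

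Of 12 measured base excision and deamination genes 4 were called higher in Smad4-null and 0 lower, against 7.12% and 11.3% of all genes. The list's median was 0.21. The 4 were Gadd45g by 2.44, Gadd45b by 0.99, Gadd45a by 0.55 and Apobec1, a cytidine deaminase, by 0.94 (limma adjusted p = 0.00223 to 0.0404). The Gadd45 genes encode stress proteins that have been tied to active demethylation. Gadd45g, the largest, read 8.32 to 9.09 on Smad4-null arrays, 6.63 to 7.90 on Trim33-KD arrays and 6.06 to 6.38 on WT arrays. Its Trim33-KD difference of 1.18 did not pass (limma adjusted p = 0.145), although the Trim33-KD and WT arrays did not overlap. Without both WT replicate 1 arrays, and without the 2 arrays of narrow spread, 2 of the 4 were called, Gadd45a and Gadd45g. Gadd45b also lost its call after median centring and with signals set to at least 64 (limma adjusted p = 0.0570).

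Among 8 measured readers of methylated CpG 0 were called higher in Smad4-null and 2 lower, against 7.12% and 11.3% of all genes. The list's median was −0.22. Zbtb4, a zinc finger repressor, lay under 64 on all 4 Smad4-null arrays and also on WT-ac replicate 2. With signals set to at least 64 it was 1.16-fold lower in Smad4-null than in WT (limma adjusted p = 0.0100). Mbd2, which recruits the NuRD complex, was lower by −0.43 (limma adjusted p = 0.0487) and lost its call in 4 of the 4 other settings. Of 8 measured genes of methyl donor and 2-oxoglutarate supply 2 were lower, Gnmt, a consumer of S-adenosylmethionine, by −1.05 and Mtr, methionine synthase, by −0.41 (limma adjusted p = 0.00897 and 0.0122), with a median of 0.03. Mtr was not called after median centring, and neither was called without the 2 arrays of narrow spread. No gene of these lists was called in the mean response to activin.

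Markers of the naive and primed states are given beside the enzymes for orientation. In Smad4-null 9 of 12 naive pluripotency genes were called higher than in WT and 1 lower, against 7.12% and 11.3% of all genes. The 9 were Klf2, Klf4, Esrrb, Nr0b1, Prdm14, Tbx3, Zfp42, Fgf4 and Tcl1, and the lower one was Klf5. After median centring the 9 were still called and Klf5 was not. Tbx3 and Klf5 lost their calls without both WT replicate 1 arrays and without the 2 arrays of narrow spread. Among 8 measured primed epiblast genes 1 was higher, Pou3f1, and 4 lower, Fgf5, Zic2, Sall2 and Pim2. Zic2 also lost its call in these 2 settings. In Trim33-KD 0 naive genes were called, against 0.649% of all genes. With so small a share, 0 calls in a list of 12 genes say little. Of the primed genes Otx2, a factor of the primed epiblast, was lower in Trim33-KD by −0.95 (limma adjusted p = 0.0324). This call was lost in 3 of 4 other settings, with adjusted p up to 0.194: after median centring, without both WT replicate 1 arrays and without the 2 arrays of narrow spread. Dnmt3l and Tex19.1 were called in that genotype. Trophectoderm markers, 8 in number, had a summed antilog signal of 3829 to 3972 in Smad4-null, 5514 to 11565 in Trim33-KD and 4356 to 5249 in WT. Most of it came from Krt8 and Krt18. Of the 8, 1 was called lower in Smad4-null than in WT, Cdx2, and 0 higher, against 11.3% and 7.12% of all genes. All 4 Smad4-null arrays of Cdx2 lay under 64 on the linear scale. Extraembryonic endoderm markers, 9 in number, summed to 1274 to 1387 in Smad4-null, 1527 to 1870 in Trim33-KD and 1702 to 1892 in WT. Of the 9, 4 were called lower in Smad4-null than in WT, Gata6, Sox17, Sox7 and Col4a1, and 0 higher. Sox17, Sox7 and Col4a1 each lost the call in 2 of 4 other settings. Fibroblast markers, 7 measured, summed to 511 to 631 in Smad4-null, 510 to 553 in Trim33-KD and 502 to 634 in WT. Of these 7, 1 was called higher in Smad4-null and 2 lower, against 7.12% and 11.3% of all genes. The higher one was Dcn, a matrix proteoglycan, with means of 7.86 in Smad4-null and 4.59 in WT (limma adjusted p = 0.0173). All 4 WT arrays of Dcn lay under 64 on the linear scale, so its difference has no dependable size. Thy1 was lower by −0.76 and Col1a2 by −0.48 (limma adjusted p = 0.00678 and 0.00570). Dcn and Thy1 each lost the call in 2 of 4 other settings, and Col1a2 in 1. The part of these cell types in the enzyme differences was not tested.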

How the data were processed

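Total RNA of 12 embryoid body samples was hybridized to Affymetrix mouse expression arrays, in 6 groups of 2. The authors deposited 1 log2 signal for each probe set and array, and computed from the files, the antilog of each array has a trimmed mean of 500. No source used here says how probes were summarized. The submitters' processing notes name limma without a version. The values were used unchanged. The number of arrays limits the precision, and signals have no depth.

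Of 45101 probe sets 64 were controls. The platform table gave 1 symbol to 34945 probe sets, several to 932, which were left out of the gene fit, and none to 9160. The brightest probe set by mean stood for each of 18193 genes. A means model of the 6 groups was fitted with limma 3.58.1 in R 4.3.3 (lmFit, eBayes, Benjamini-Hochberg over all genes, threshold 0.05, 6 residual degrees of freedom), and again over 45037 probe sets. Genotype differences average both treatments, 4 arrays against 4. The code was tested on simulated data. Probe-set ratios were compared by exact permutation tests. Replicate numbers did not pair the arrays: over 15 pairs of groups, deviations from group means correlated by −0.299 to 0.386. The highest values were both within a genotype, WT (0.386) and Trim33-KD (0.335), whereas the genotype tests take 4 arrays as independent; an alternative averages the arrays of a number. Figures used Python 3.11.15 and matplotlib 3.10.9.

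All 8 members are named. Of each further list the genes called against WT are named, up to 4 in each direction by size. All are named for the naive list, and only some for the cell type markers. For each member the 3 genes most correlated with it are named (fewer are printed for Uhrf1, Dnmt1 and Dnmt3b). The members and lists were chosen with earlier results of these data known. The alternatives changed the scaling (quantile, median centring), the genes kept (upper 50% or 75%), the summary of probe sets (their mean, every probe set, or only those without a cross-hybridizing suffix), the prior (trended and robust), the weights of arrays, the groups in the fit, the replicate number as a block, a floor at 64 in linear signal, and the arrays left out.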

Additional observations from a re-analysis of the deposited data

Results flagged for a closer look

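In Smad4-null 1 array of Dnmt3b, Smad4-null-ac replicate 1, read 13.7743 (log2), with 13.47 as the lowest of the 4 arrays; its gap to the nearest other array was 0.846 of the range, above Dixon's critical value of 0.829. Chance gives such an array in about 5% of groups, and 24 groups were examined. This array also had one of the narrowest spreads of signals.

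The responses of each 2 of the 3 genotypes were compared over the 20 probe sets. For 3 probe sets the Smad4-null and Trim33-KD responses to activin had opposite signs, with no overlap between treatments in either. With 2 arrays against 2, non-overlap arises readily by chance. The share of all probe sets with such opposite responses was not computed, so this count is no result about these genes. The Tet1 probe set 1419896_at had a response of −0.27 in Smad4-null and 0.90 in Trim33-KD, a difference of −1.17 (limma adjusted p = 0.73). In Trim33-KD it read 9.46 and 9.40 with activin and 8.91 and 8.16 with SB431542. The Dnmt3a probe set 1423066_at had a response of −0.15 in Smad4-null and 0.67 in Trim33-KD, a difference of −0.82 (limma adjusted p = 0.653). In Trim33-KD it read 11.61 and 11.87 with activin and 11.11 and 11.03 with SB431542. As a measure of RNA quality, the 3' over 5' Actb signal (log2) was 0.40 and 0.31 on the Trim33-KD-ac arrays and 0.53 and 0.74 on the Trim33-KD-SB arrays, and its part in these responses was not tested. The Dnmt1 probe set 1422946_a_at had a response of 0.09 in Smad4-null and −0.07 in Trim33-KD, a difference of 0.16 (limma adjusted p = 0.941). No member passed the test of this difference, in which limma called 0 genes, with 1117 at an unadjusted p under 0.05, and 0.00222% of probe sets.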

How the results depend on the processing

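Counts of members called were computed under 26 alternatives (25 for the mean response, 27 for genotype differences) and the further lists under 4, with a floor beside them. Leaving out WT-ac replicate 1 and WT-SB replicate 1 together, averaging the activin and SB431542 arrays of a replicate number, and the floor for the lists were chosen after the data were seen. The counts of 0 for activin stayed at 0 in all of them. The 4 calls in Smad4-null minus WT were 3 to 4 with any 1 array left out and 2, Dnmt3l and Tet1, without both WT replicate 1 arrays and after averaging. The 1 call in Trim33-KD minus WT was 0 to 1 with any 1 array left out. It was 2 with the upper 50% of genes and with a trended and robust prior, where Dnmt3a joined Dnmt3l (adjusted p = 0.045 and 0.0471). It was 0 without cross-hybridizing probe sets, which removes the only Dnmt3l probe set, and 0 with only the groups compared (Dnmt3l adjusted p = 0.117), without the 2 arrays of narrow spread (0.0946), without both WT replicate 1 arrays (0.0994) and after averaging (0.217). The 2 calls in Smad4-null minus Trim33-KD were 1 to 3 with any 1 array left out, where Tet3 joined without Trim33-KD-ac replicate 1 (adjusted p = 0.0455), and 1, Tet1, after median centring, after averaging, with all probe sets and without the 2 narrow arrays. With a replicate block, which the check of pairing did not call for (4 of 6 groups matched their own number best), the counts were 3, 1 and 2, and Tet2 in Smad4-null minus WT had an adjusted p of 0.0686. Dnmt3l in Smad4-null minus WT stayed called in 26 of 26 alternatives that measured it (1.67 to 1.91), and Tet1 in 27 of 27 (0.49 to 0.58). Dnmt3a lost the call in 3, with the mean of its probe sets, without both WT replicate 1 arrays (0.44, adjusted p = 0.0669) and after averaging (adjusted p = 0.0824). Tet2 lost it in 18 against WT and in 10 against Trim33-KD. The causes were not tested. Tet3 is limited by its low signal, and under the floor it gave no difference.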
